A study of Homo sapiens with 8 samples.

Results

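The ADAM, ADAMTS and ADAMTSL genes were taken from the count table of A375 melanoma cells by their symbols, which had to be ADAM, ADAMTS or ADAMTSL followed by a number only. The rule found 46 genes of 60710 in all, with 22 ADAM, 19 ADAMTS and 5 ADAMTSL genes. A375 is an established human metastatic melanoma line, grown here in DMEM with serum. In 4 independent experiments the cells received 50 ng/mL TNF for 24 h (TNF, n = 4) or were left untreated (NT, n = 4), and polyadenylated RNA was sequenced. All libraries come from this 1 line, with no genetic change described in either group, and the study used it to follow the response of melanoma cells to TNF.

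ADAM proteins sit in the cell membrane, where the active members cut other membrane proteins near the cell surface and release their outer part, a step called shedding. TNF itself is released in this way by ADAM17, and ADAM10 starts the cleavage of Notch receptors. ADAMTS proteins are secreted relatives that act in the extracellular matrix, where some cut proteoglycans such as aggrecan and versican and others trim procollagen. ADAMTSL proteins resemble ADAMTS proteins but have no protease domain.

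The protease domain holds a zinc ion with 3 histidines, beside a glutamate that takes part in catalysis. The coding sequence for this zinc site was found in 31 of the 44 protein-coding members, in 12 of 20 ADAM, 19 of 19 ADAMTS and 0 of 5 ADAMTSL genes. The other 2 members, ADAM5 and ADAM6, are annotated as pseudogenes. The 36 bases (12 codons) of the site are shown for 4 proteases whose expression changed, and then for 2 ADAM genes without a working site that fell. The capitals mark the codons of the 3 histidines and the glutamate, or the codons aligned with them.
ADAM19, chr5:157505731-157505766, minus strand, exon 11: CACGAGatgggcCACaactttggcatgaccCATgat
ADAM8, chr10:133271877-133271912, minus strand, exon 11: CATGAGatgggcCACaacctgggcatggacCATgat
ADAMTS6, chromosome 5, minus strand, exons 9 and 10: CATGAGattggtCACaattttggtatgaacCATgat
ADAMTS16, chromosome 5, plus strand, exons 8 and 9: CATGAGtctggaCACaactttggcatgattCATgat
ADAM22, chr7:88134365-88134400, plus strand, exon 13: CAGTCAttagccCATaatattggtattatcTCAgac
ADAM23, chr2:206562239-206562274, plus strand, exon 13: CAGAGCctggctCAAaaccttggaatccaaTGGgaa
All 4 amino acids of the site were kept in ADAM19, ADAM8, ADAMTS6 and ADAMTS16, at times by another codon, against 1 of 4 in ADAM22 and 0 of 4 in ADAM23. Over the 36 bases, 31 were as in ADAM19 in ADAM8, 30 in ADAMTS6 and 29 in ADAMTS16, and 19 were so in ADAM22 and 18 in ADAM23. ADAM29, another member without the full site, kept 3 of the 4 amino acids. The sequences are those of the Ensembl canonical transcripts in GENCODE release 44 on GRCh38.

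The libraries held 33317454 to 43125094 expected counts in TNF and 30989787 to 44373296 in NT. Expression within a gene is given in CPM, which divides counts by library size and by a TMM factor, one that makes libraries comparable when a few genes take many reads. The TNF response genes listed as a check (among them NFKBIA, TNFAIP3 and CXCL8) were higher with TNF in 9 of 9 cases. Of the melanocyte lineage markers, SOX10, a neural crest transcription factor, had 1177 ± 86.2 CPM in TNF and 1025 ± 53.9 CPM in NT (edgeR adjusted p = 0.0882, and 0.00979 with the experiment as a replicate block). MITF had 22.0 ± 2.44 CPM in TNF and 21.0 ± 1.24 CPM in NT (SD, n = 4 each). The pigment cell genes MLANA, PMEL, TYR and DCT were all near or at 0, with means of at most 0.456 CPM in TNF and 0.458 CPM in NT. S100B, the 1 lineage marker past the test without the block, was lower with TNF, at 3.05 ± 0.421 CPM in TNF and 17.3 ± 3.93 CPM in NT (log2 -2.50, edgeR adjusted p = 6.77e-06). Leukocyte markers were too low to test, and fibroblast markers summed to 3.88 to 8.44 CPM in TNF and 4.35 to 9.10 CPM in NT. Of the 4 fibroblast markers, DCN was higher with TNF, at 1.48 ± 0.707 CPM in TNF and 0.550 ± 0.184 CPM in NT (edgeR adjusted p = 0.0167), and with the replicate block LUM (log2 -0.80, adjusted p = 0.0164) and PDGFRA (log2 -0.57, adjusted p = 0.0417) were lower. Ribosomal, 7SK and 7SL RNA took 0.0135%, 0.0139% and 0.0134% of counts in TNF replicate 4, NT replicate 2 and NT replicate 4, against 0.00256% to 0.00430% in the other libraries, and both libraries of experiment 4 lay away from the others on principal component 2. Values without these libraries are given below beside some of the genes, and the part of either in the results was not tested.

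Of the 46 members, 8 had 0 counts in every library: the pseudogenes ADAM5 and ADAM6, and ADAM2, ADAM7, ADAM18, ADAM28, ADAM29 and ADAM30, most of them known from the testis or epididymis. A further 11 had some counts but too few to test, and 27 passed the filter on low counts. A gene that passed only through the group where it was high had to differ, so the counts below describe the 27 and are not evidence about the family. In edgeR's quasi-likelihood test with Benjamini-Hochberg adjustment over 16186 genes, 6 of the 27 (22.2%) were higher with TNF, against 14.5% of all genes tested. Another 5 (18.5%) were lower, against 9.9% of all genes, and 16 did not pass an adjusted p of 0.05. In either direction these were 40.7% of the 27 tested members, against 24.4% of all genes. The median log2 fold change was 0.05 over the members and -0.00 over all genes. In bulk RNA, fewer cells that express a gene and less RNA per cell cannot be told apart.

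The groups did not overlap in the same 11 genes (40.7% of the 27, against 27.3% of all genes tested). A change of over 2-fold (log2 above 1 in size) was seen in 7 of the 11 (25.9% of the 27, against 8.01% of all genes). With the experiment entered as a block, 10 members were higher (21.3% of all genes were) and 8 were lower (18.2% of all genes were). The block added ADAM17, ADAMTS12, ADAMTS4 and ADAMTS15 to the higher genes and ADAM15, ADAM12 and ADAMTSL4 to the lower ones, and it removed none. The block, and all counts of experiments below, rest on pairing by the dates in the series count table. The single-sample records of all 4 NT samples hold the counts of another NT replicate, and the pairs they would give were not compared.

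**Figure D1:**
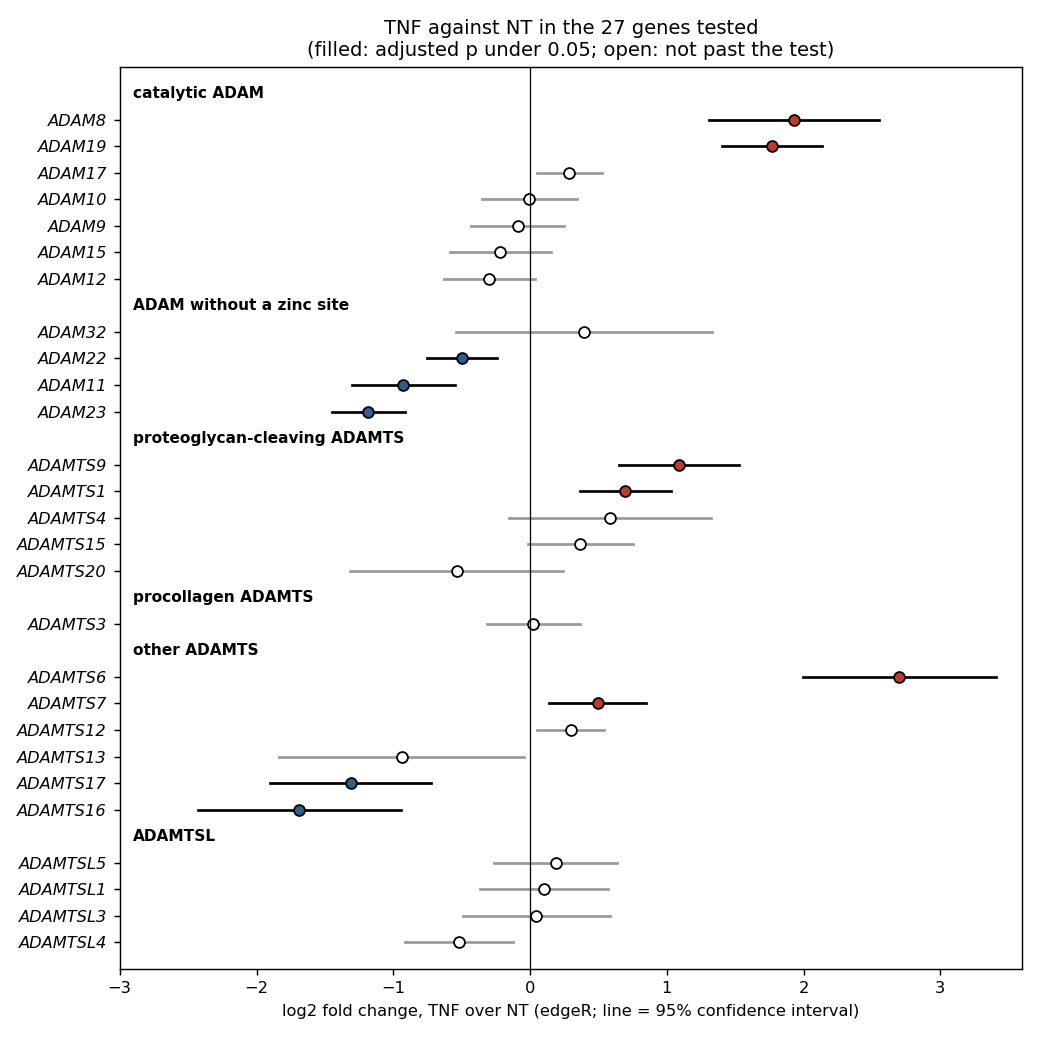
Log2 fold change of TNF over NT (horizontal axis, edgeR) in the 27 tested genes, grouped by role, with 95% confidence intervals as lines. Filled points passed an adjusted p of 0.05 (red higher, blue lower with TNF) and open points did not. The ADAM genes without a zinc site hold 3 of the 5 falls, and ADAMTS6 has the highest estimate at 2.70.

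Among the 12 ADAM genes with a zinc site, 2 were at 0 in all libraries, 7 were tested, 2 were higher and 0 were lower. ADAM19, also called meltrin beta, can cut neuregulin 1 from the cell surface. It had 140, 140, 141 and 93.0 CPM in TNF replicates 1 to 4, against 36.3, 39.7, 29.2 and 45.8 CPM in NT replicates 1 to 4. Every TNF library stood above every NT library, with replicate 4 the lowest TNF library and the highest NT library. The fold change was 3.41 (95% confidence interval 2.65 to 4.39, log2 1.77, standard error 0.16, edgeR adjusted p = 3.17e-05). With the replicate block the call was weaker but held (log2 1.77, standard error 0.23, edgeR adjusted p = 0.00560). Its log2 value was 1.99 with experiment 4 left out and 2.10 without the 3 libraries with more ribosomal, 7SK and 7SL RNA. The gene lies at chr5:157395534-157575775 on the minus strand, and its exons overlap those of CYFIP2 on the other strand.

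ADAM8, a protease known mainly from leukocytes, was expressed at a much lower level. It had 0.890, 1.29, 1.04 and 1.13 CPM in TNF and 0.363, 0.246, 0.189 and 0.317 CPM in NT. These values rest on 31 to 45 counts in TNF libraries and 6 to 17 in NT libraries, and the groups did not overlap. ADAM8 expression was thus 3.81-fold higher (95% confidence interval 2.48 to 5.87, log2 1.93, standard error 0.28, edgeR adjusted p = 0.000551). The leukocyte markers together summed to 0.139 to 0.258 CPM in TNF and 0.0952 to 0.301 CPM in NT, most of it from CD14 (means of 0.174 CPM in TNF and 0.164 CPM in NT). Their part in the ADAM8 values was not tested.

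The 2 principal sheddases were expressed in all libraries and did not pass the test. ADAM10 had 101, 91.5, 116 and 62.4 CPM in TNF, against 96.9, 93.6, 97.7 and 83.7 CPM in NT, so that the NT values lay within the range of the TNF values. Its log2 difference was -0.01, with a 95% confidence interval of -0.35 to 0.34 (edgeR adjusted p = 0.985). ADAM17, the enzyme that releases TNF, had 39.4, 36.7, 43.4 and 30.8 CPM in TNF and 33.4, 30.0, 31.6 and 28.2 CPM in NT. The TNF library was the higher one in 4 of 4 experiments, although the groups overlapped. Its log2 difference was 0.29 (95% confidence interval 0.05 to 0.52, edgeR adjusted p = 0.0773), with adjusted p = 0.00643 under the replicate block, 0.00990 without TNF replicate 4 and 0.0178 without experiment 4. ADAM17 had estimated counts that were not whole in all 8 libraries, which shows reads shared with other transcripts, and its exons overlap IAH1 on the other strand.

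The other 3 tested proteases of this group had log2 differences below 0 that did not pass. ADAM15, which carries an integrin-binding site in its disintegrin domain, averaged 198 ± 49.3 CPM in TNF and 230 ± 34.2 CPM in NT (log2 -0.22, edgeR adjusted p = 0.397, 0.00926 with the replicate block and 0.0436 without TNF replicate 4). ADAM12, a protease of muscle and placenta, averaged 10.3 ± 1.71 CPM in TNF and 12.6 ± 1.83 CPM in NT (log2 -0.30, edgeR adjusted p = 0.193, and 0.0104 with the replicate block). ADAM9, a broadly expressed relative, averaged 64.0 ± 13.6 CPM in TNF and 68.3 ± 8.29 CPM in NT (log2 -0.09, edgeR adjusted p = 0.728). The TNF library was the lower one in 4 of 4 experiments for both ADAM15 and ADAM12, and in 3 of 4 for ADAM9.

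**Figure D2:**
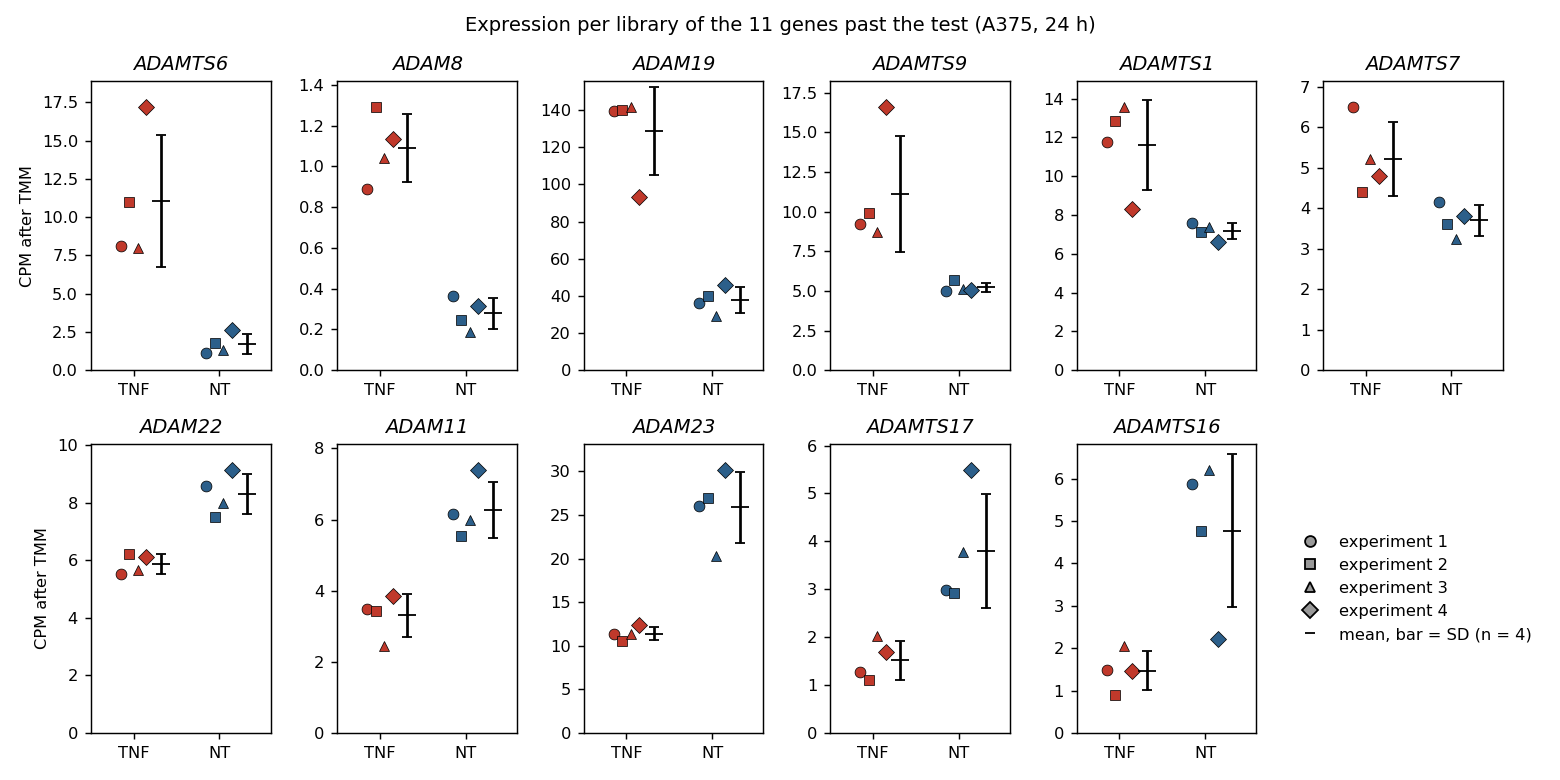
CPM (vertical axes, each from 0) of the 11 genes past the test, by library, with TNF in red left of NT in blue. Symbols mark the 4 experiments and bars the mean and SD (n = 4). No TNF library overlaps the NT libraries in any panel, and ADAM19 in TNF replicate 4 is at 93.0 CPM, against 140 to 141 CPM in the other TNF libraries.

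Of the 8 ADAM genes without a zinc site, 4 were at 0 in every library and 4 were tested. The falls were ADAM11, ADAM22 and ADAM23, relatives known from neurons, where ADAM22 and ADAM23 bind secreted LGI proteins at synapses. ADAM23 had 11.3, 10.6, 11.3 and 12.3 CPM in TNF, against 26.0, 26.99, 20.3 and 30.1 CPM in NT. This gave a fold change of 0.440 (95% confidence interval 0.366 to 0.530, log2 -1.18, standard error 0.12, edgeR adjusted p = 5.21e-05). Each TNF library lay well below the lowest NT library.

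ADAM11 showed the same order at a lower level, with 3.47, 3.44, 2.46 and 3.85 CPM in TNF and 6.15, 5.55, 5.98 and 7.39 CPM in NT. Its fold change was 0.526 (log2 -0.93, standard error 0.17, edgeR adjusted p = 0.00243). ADAM22 had 5.51, 6.23, 5.67 and 6.12 CPM in TNF, against 8.57, 7.51, 7.99 and 9.14 CPM in NT, with a fold change of 0.708 (log2 -0.50, standard error 0.11, edgeR adjusted p = 0.00892). All 3 genes were lower in the TNF library in 4 of 4 experiments, and all 3 kept their call under each of the 18 alternatives that refitted the test. ADAM32, a testis gene, did not pass, at 0.602 ± 0.273 CPM in TNF and 0.463 ± 0.229 CPM in NT (SD, n = 4 each), and its counts were not whole in all 8 libraries. Its log2 value was 0.39, and 1.195 without the 3 libraries with more ribosomal, 7SK and 7SL RNA, with edgeR adjusted p of 0.567 and 0.0820. Per kilobase of transcript, the 8 genes summed to 3.37 ± 0.174 CPM in TNF and 6.50 ± 0.831 CPM in NT (SD, n = 4 each), with no overlap.

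The 19 ADAMTS genes all had counts in at least 1 library, and 12 were tested, of which 4 were higher and 2 lower. Among the 7 known as proteoglycan cleavers, 5 were tested and 2, ADAMTS9 and ADAMTS1, were higher. ADAMTS9, which cuts versican and aggrecan, had 9.21, 9.92, 8.73 and 16.6 CPM in TNF, against 5.02, 5.66, 5.10 and 5.08 CPM in NT. The 4 NT libraries were close together, and TNF replicate 4 was well above the other TNF libraries. The fold change was 2.13 (95% confidence interval 1.57 to 2.88, log2 1.09, standard error 0.20, edgeR adjusted p = 0.00242), and the log2 value was 0.81 without experiment 4. Its exons overlap the antisense gene ADAMTS9-AS1.

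ADAMTS1, a cleaver of versican and aggrecan that also has thrombospondin repeats, had 11.7, 12.9, 13.5 and 8.32 CPM in TNF and 7.57, 7.13, 7.36 and 6.63 CPM in NT. ADAMTS1 was 1.62-fold higher (log2 0.70, standard error 0.15, edgeR adjusted p = 0.00656). In contrast to ADAMTS9, the lowest TNF value was that of replicate 4, where ADAMTS1 was only just above the NT libraries. ADAMTS4, an aggrecanase, had 9.93, 9.89, 10.98 and 4.76 CPM in TNF and 9.30, 4.67, 6.48 and 3.17 CPM in NT. The groups overlapped, although the TNF library was the higher one in 4 of 4 experiments (log2 0.58, edgeR adjusted p = 0.249, and 0.0104 with the replicate block). Its log2 value was 0.37 without the 3 libraries with more ribosomal, 7SK and 7SL RNA, and its counts were not whole in all 8 libraries. ADAMTS15 averaged 8.46 ± 1.87 CPM in TNF and 6.57 ± 0.976 CPM in NT (log2 0.37, edgeR adjusted p = 0.163, and 0.0447 with the replicate block). ADAMTS20, a versican cleaver, averaged 0.639 ± 0.350 CPM in TNF and 0.943 ± 0.0854 CPM in NT (log2 -0.54, edgeR adjusted p = 0.318, and 0.0433 without TNF replicate 3).

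The other 2 proteoglycan cleavers were too low to test. ADAMTS8 had 0, 0, 0 and 1 counts in TNF replicates 1 to 4, against 5, 13, 2 and 5 counts in NT. All NT libraries held more counts than any TNF library, and with no filter on low counts the gene was lower at an edgeR adjusted p of 0.00959. ADAMTS5, the other main aggrecanase of cartilage, had 0, 2, 2 and 1 counts in TNF and 4, 2, 3 and 5 in NT, an edgeR adjusted p of 0.433 with no filter.

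Of the 3 procollagen-trimming genes, ADAMTS3 was the only one tested. It averaged 9.35 ± 1.63 CPM in TNF and 9.20 ± 1.38 CPM in NT (log2 0.02, 95% confidence interval -0.31 to 0.36, edgeR adjusted p = 0.936). ADAMTS2 had 1 to 2 counts in TNF and 2 to 4 in NT libraries, and ADAMTS14 had 1 count in 1 NT library only.

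The remaining 9 ADAMTS genes held both the highest and the lowest fold change among the 27 tested members. ADAMTS6, a secreted protease that mouse work ties to heart development, had 8.12, 11.02, 7.97 and 17.2 CPM in TNF, against 1.15, 1.75, 1.35 and 2.60 CPM in NT. Replicate 4 was the highest in both groups, and the lowest TNF library was still well above the highest NT library. The fold change was 6.50 (95% confidence interval 3.99 to 10.6, log2 2.70, standard error 0.32, edgeR adjusted p = 0.000152). The differences within experiments 1 to 4 were 2.76, 2.62, 2.51 and 2.70 in log2 CPM. The 4 experiments thus differed little in the size of the change, although the levels differed. ADAMTS6 lies at chr5:65148738-65481920 on the minus strand, with no exon overlap with another gene.

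ADAMTS16, a protease that rat genetics links to blood pressure, had 1.49, 0.890, 2.04 and 1.46 CPM in TNF, against 5.88, 4.75, 6.20 and 2.22 CPM in NT. NT replicate 4 was far below the other NT libraries and just above the highest TNF library. The fold change was 0.310 (95% confidence interval 0.186 to 0.519, log2 -1.69, standard error 0.34, edgeR adjusted p = 0.00410), and the log2 value was -1.91 without experiment 4. ADAMTS17, in which mutations cause a short-stature syndrome with lens dislocation, had 1.26, 1.11, 2.01 and 1.68 CPM in TNF and 2.99, 2.92, 3.78 and 5.49 CPM in NT. Here replicate 4 was the highest NT library, the reverse of its place in ADAMTS16. Its fold change was 0.403 (log2 -1.31, standard error 0.27, edgeR adjusted p = 0.00450).

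ADAMTS7 and ADAMTS12 are close relatives that cut cartilage oligomeric matrix protein. ADAMTS7 had 6.49, 4.39, 5.21 and 4.79 CPM in TNF, against 4.15, 3.61, 3.24 and 3.81 CPM in NT. The call was the weakest of the 11 (log2 0.49, standard error 0.16, edgeR adjusted p = 0.0455) and was lost in 11 of the 18 alternatives that refitted the test. The adjusted p was 0.141 without TNF replicate 1 (log2 0.37), 0.0859 without TNF replicate 3 (log2 0.50), and 0.0550, 0.109, 0.121 and 0.0789 without NT replicates 1 to 4 (log2 0.55, 0.48, 0.44 and 0.50). The call was also lost with all libraries kept, at adjusted p = 0.0806 with upper-quartile factors, 0.103 with library totals and 0.0906 with no filter, and it held with the replicate block (adjusted p = 0.00994). The estimate lay between 0.37 and 0.57 in log2 under all 18 alternatives that refitted the test. ADAMTS12 averaged 37.2 ± 5.51 CPM in TNF and 30.3 ± 2.36 CPM in NT (log2 0.30, edgeR adjusted p = 0.0768, 0.0140 with the replicate block, 0.0198 without TNF replicate 4 and 0.0219 without experiment 4). The estimates of both genes were above 0, and ADAMTS12 passed only under the block, without TNF replicate 4 or without experiment 4. ADAMTS13, which cuts von Willebrand factor in plasma, averaged 0.196 ± 0.0873 CPM in TNF and 0.380 ± 0.119 CPM in NT (log2 -0.94, edgeR adjusted p = 0.125), and its log2 value was -0.67 without experiment 4 and -0.39 without the 3 rRNA-rich libraries.

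The other members of this group had few counts. ADAMTS18 had 1, 0, 2 and 7 counts in TNF and 0 in all 4 NT libraries, an edgeR adjusted p of 0.0739 with no filter. ADAMTS10, a relative of ADAMTS6, had 13, 5, 17 and 17 counts in TNF and 7, 8, 5 and 2 in NT, an edgeR adjusted p of 0.132 with no filter. Neither passed, and the groups overlapped in both. ADAMTS19 had at most 1 count in any library. Of the catalytic ADAM genes left out by the filter, ADAM21, a testis gene, had 1, 1, 1 and 0 counts in TNF and 5, 4, 3 and 3 in NT (edgeR adjusted p = 0.199 with no filter), while ADAM20 and ADAM33 had at most 2 counts in any library.

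The 5 ADAMTSL genes had counts in at least 1 library each, and 0 of the 4 tested passed. ADAMTSL4, a matrix protein whose loss displaces the lens, was nearest, with 5.68, 4.18, 5.05 and 4.14 CPM in TNF and 8.83, 6.88, 5.44 and 6.06 CPM in NT. It was lower in the TNF library in 4 of 4 experiments, although the groups overlapped (log2 -0.52, standard error 0.18, edgeR adjusted p = 0.0587). The adjusted p was 0.00814 with the replicate block, 0.0489 without TNF replicate 1 and 0.0439 without NT replicate 3, and DESeq2 gave 0.0275. ADAMTSL4 exons overlap those of MCL1 on the other strand. ADAMTSL1 averaged 3.42 ± 0.216 CPM in TNF and 3.20 ± 1.02 CPM in NT (log2 0.10, edgeR adjusted p = 0.785). Its log2 value was 0.40 without the 3 libraries with more ribosomal, 7SK and 7SL RNA. ADAMTSL3 averaged 1.64 ± 0.268 CPM in TNF and 1.58 ± 0.489 CPM in NT (log2 0.05, edgeR adjusted p = 0.921), and its counts were not whole in all 8 libraries. ADAMTSL5 averaged 3.13 ± 0.729 CPM in TNF and 2.75 ± 0.401 CPM in NT (log2 0.19, edgeR adjusted p = 0.567). ADAMTSL2 had 0 to 5 counts in TNF and 0 to 7 in NT libraries.

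**Figure D3:**
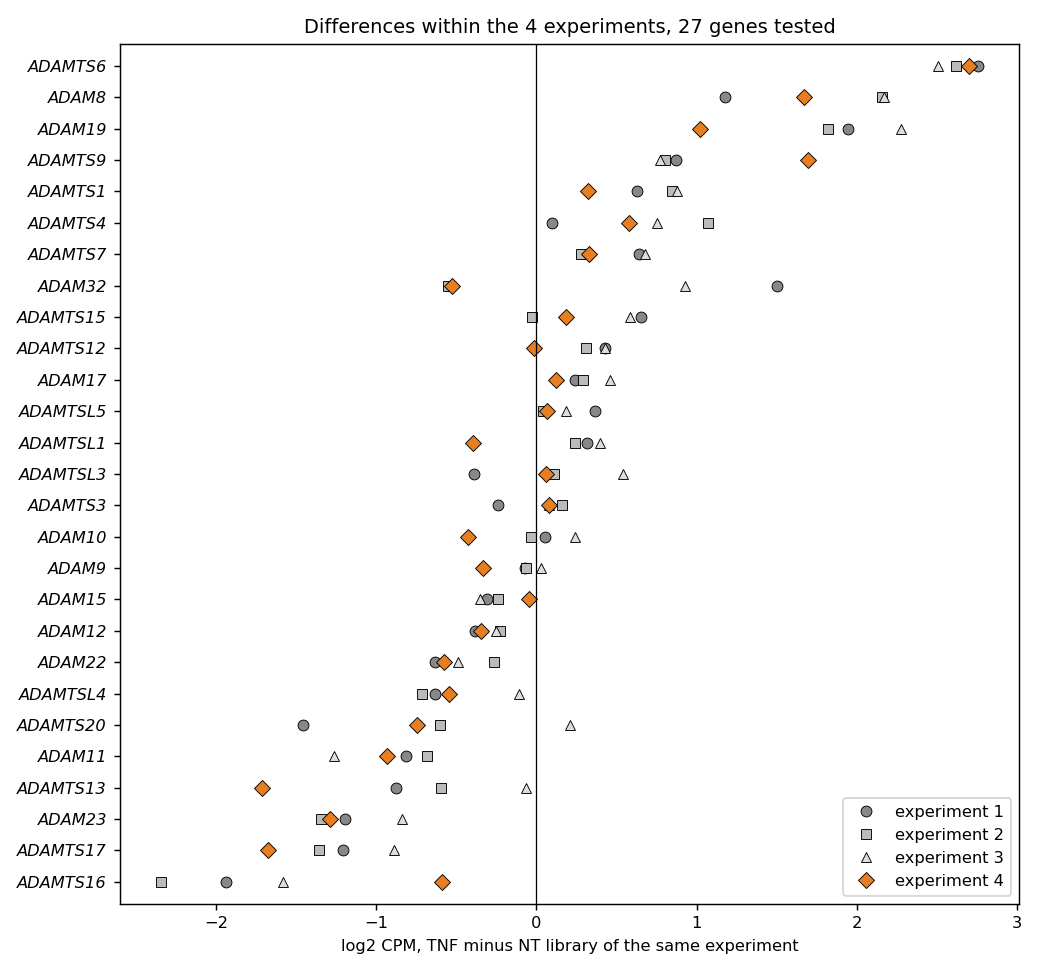
Difference in log2 CPM between the TNF and the NT library of the same experiment (horizontal axis) for the 27 tested genes, ordered by fold change. Experiment 4 is in orange. ADAMTS6 lies between 2.51 and 2.76 in all 4 experiments, whereas ADAM19 lies between 1.02 in experiment 4 and 2.28 in experiment 3.

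Levels of different genes were compared as CPM per kilobase of the canonical transcript. The order depends on that 1 length per gene, and which transcripts these cells use was not tested. ADAM10 (11158 bases) ranks below ADAM9 (4112 bases) here, although its CPM in NT was higher (93.0 against 68.3). In TNF cells ADAM15 was the highest member at 67.4 ± 16.8 CPM per kb (SD, n = 4), followed by ADAM19 at 19.8 ± 3.66, ADAM9 at 15.6 ± 3.30, ADAM17 at 8.56 ± 1.21, ADAM10 at 8.29 ± 2.01 and ADAMTS12 at 4.34 ± 0.643 CPM per kb. The ranges of ADAM19 and ADAM9 overlapped, as did those of ADAM17 and ADAM10. In NT cells the order was ADAM15 at 78.3 ± 11.6, ADAM9 at 16.6 ± 2.02, ADAM10 at 8.33 ± 0.574, ADAM17 at 7.02 ± 0.504, ADAM19 at 5.82 ± 1.07, ADAM23 at 4.08 ± 0.648 and ADAMTS12 at 3.53 ± 0.276 CPM per kb. The ranges of neighbours from ADAM10 down to ADAMTS12 overlapped in NT cells. ADAM15 shares exon sequence with DCST1 on the same strand, 4 of its 8 estimated counts were not whole, and whether its level holds reads of that gene was not tested.

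ADAM19 thus held place 2 in TNF cells and place 5 in NT cells, and ADAMTS6 held place 9 in TNF cells at 1.52 ± 0.589 CPM per kb, against 0.235 ± 0.0877 in NT cells. Of the summed level of the ADAM genes with a zinc site, ADAM19 made up 18.9%, 17.3%, 18.8% and 11.05% in TNF replicates 1 to 4, against 5.04%, 5.05%, 4.13% and 5.44% in NT. The sum itself was 121 ± 7.53 CPM per kb in TNF and 118 ± 9.78 in NT, so the share of ADAM19 differed between the groups while the sums overlapped. All 19 ADAMTS genes summed to 15.1 ± 0.721 CPM per kb in TNF and 11.6 ± 0.513 in NT, with no overlap. All 46 members summed to 143 ± 6.67 CPM per kb in TNF and 139 ± 10.1 in NT.

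**Figure D4:**
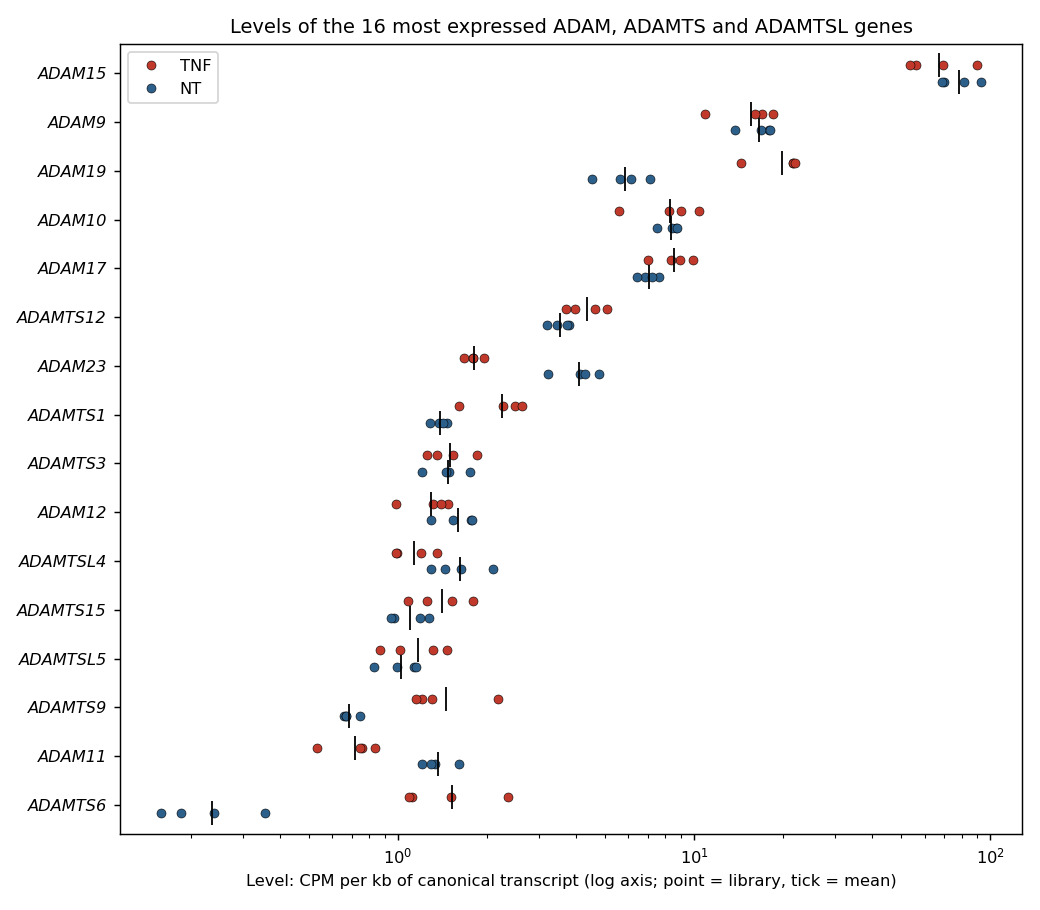
Level per library in CPM per kb of canonical transcript (horizontal log axis) of the 16 members with the highest summed level, with TNF in red above NT in blue and ticks at the mean (n = 4). ADAM15 is the highest in both groups, at 67.4 CPM per kb in TNF and 78.3 in NT.

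Promoter sequence was looked at because 6 members were higher and 5 lower with TNF. This cytokine is known to act largely through the transcription factors NF-kB and AP-1, and their part in these changes was not tested. RefSeq windows on GRCh38.p14, from 250 bases before to 50 after the annotated start, were at hand for 29 of the 46 members (30 windows). No window was at hand for ADAMTS1 and ADAMTS9, which were higher, or for ADAM11 and ADAMTS16, which were lower. The motif counts therefore do not cover these genes. Searched on both strands, the NF-kB consensus was in 1 of the 30 (ADAMTSL2), against 5.91% of 35116 windows of the same length, and the AP-1 motif TGANTCA was in 1 (ADAMTS12), against 7.71%. The pattern TCANGTGA was searched as a loose form of the MITF E-box, with any base allowed at N. It was in 2 (ADAM19 and ADAM21), against 3.79%. Both matches read TCACCTGA, found through the open base, and hold CACCTG rather than the E-box letters CACGTG. They are thus not read as MITF sites, and binding of MITF to these letters was not tested. The TATA box TATAAA was in 3, against 11.5%, and the GC box GGGCGG was in 22, against 15786 of the 35116. No match of one motif overlapped a match of another in these windows. A match is a description of the letters and not of binding. The 250 bases before the start are shown for ADAM19 and ADAMTS6, the protease genes with the highest level and the highest fold change among the genes that rose. The capitals mark the match to TCANGTGA, and ADAMTS6 held no match to the 5 patterns. The ADAMTS6 stretch does hold the E-box letters CACGTG, which the pattern missed because the base before them is C.
ADAM19, chr5:157575776-157576025, minus strand: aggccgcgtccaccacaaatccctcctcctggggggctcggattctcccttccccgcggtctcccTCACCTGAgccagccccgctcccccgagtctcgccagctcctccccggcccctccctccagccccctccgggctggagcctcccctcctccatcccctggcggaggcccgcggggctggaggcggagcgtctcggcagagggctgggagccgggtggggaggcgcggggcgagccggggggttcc
ADAMTS6, chr5:65481921-65482170, minus strand: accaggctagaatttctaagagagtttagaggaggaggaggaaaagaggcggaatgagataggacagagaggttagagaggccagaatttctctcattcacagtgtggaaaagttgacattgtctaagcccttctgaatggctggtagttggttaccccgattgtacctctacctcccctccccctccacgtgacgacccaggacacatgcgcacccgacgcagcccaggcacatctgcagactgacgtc
The ADAM19 stretch had 76.4% G and C, with the match TCACCTGA beginning at -185 from the start, and the ADAMTS6 stretch had 52.4%.

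Genes that act with these proteases were read from lists of inhibitors, partners, activating enzymes and substrates. Of those named below, TIMP2, TSPAN10, TSPAN14, ICAM1 and THBS2 had counts that were not whole in all 8 libraries. Of 5 tested inhibitors, 1 was higher and 2 were lower (14.5% and 9.9% of all genes tested were). TIMP3, the TIMP that binds the matrix and blocks ADAM17 and the aggrecanases, had 819, 699, 941 and 562 CPM in TNF, against 1275, 1343, 1384 and 1375 CPM in NT. Every TNF library was lower than every NT library (log2 -0.83, standard error 0.14, edgeR adjusted p = 0.00120). RECK, a membrane-anchored inhibitor, was also lower (log2 -0.50, edgeR adjusted p = 0.0456), and TIMP2 was higher (log2 0.38, edgeR adjusted p = 0.00726). TIMP1, which inhibits ADAM10, averaged 459 ± 188 CPM in TNF and 314 ± 88.3 CPM in NT (log2 0.55, edgeR adjusted p = 0.185, and 0.000311 with the replicate block).

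Of the 9 partners that carry ADAM10 or ADAM17 to the cell surface, 2 were higher and 2 were lower. Over all genes tested, 14.5% were higher and 9.9% lower. Tetraspanins of the TspanC8 group escort ADAM10, and each directs it to its own substrates. TSPAN5 was higher, with 14.5 ± 1.04 CPM in TNF and 9.82 ± 0.857 CPM in NT (log2 0.56, edgeR adjusted p = 0.00242). TSPAN15 was lower, with 0.787 ± 0.219 CPM in TNF and 1.96 ± 0.504 CPM in NT (log2 -1.31, edgeR adjusted p = 0.00504), and so was TSPAN33 (log2 -0.61, edgeR adjusted p = 0.0105). RHBDF1, which encodes iRhom1, an escort of ADAM17, was higher, with 51.1 ± 7.58 CPM in TNF and 36.7 ± 4.11 CPM in NT (log2 0.48, edgeR adjusted p = 0.0123). With the replicate block 3 partners were higher and 3 lower (21.3% and 18.2% of all genes were). The additions were TSPAN10 (adjusted p = 0.0393) and TSPAN14 (adjusted p = 0.00222). Under the same block ADAM17 was higher too, as given above, and ADAM10 did not pass (adjusted p = 0.805).

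Proprotein convertases remove the prodomain that keeps many of these proteases, but not all, inactive. Whether they act on the members in these cells was not tested. FURIN, the main one, had 244, 257, 263 and 205 CPM in TNF, against 162, 167, 157 and 150 CPM in NT (log2 0.61, standard error 0.09, edgeR adjusted p = 0.000457). PCSK5 was lower, at 1.58 ± 0.260 CPM in TNF and 4.05 ± 0.216 CPM in NT (log2 -1.36, edgeR adjusted p = 0.000175). The other 2 of the 4 convertases did not pass.

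Among 33 membrane proteins known to be shed, 27 were tested, 14 were higher and 4 were lower (14.5% and 9.9% of all genes were). The median log2 fold change was 0.44, against -0.00 over all genes. The list overlaps the TNF response genes in ICAM1, so its counts are not read as a property of shed proteins. The largest changes were in ICAM1, an adhesion molecule (log2 3.82, edgeR adjusted p = 8.37e-09), BTC, an EGF receptor ligand (log2 2.66, edgeR adjusted p = 0.000488), SDC4, a syndecan (log2 2.19, edgeR adjusted p = 9.48e-08), and NRG1 (log2 1.90, edgeR adjusted p = 0.000250). NRG1, the neuregulin gene named above as a substrate of ADAM19, had 9.53, 9.64, 9.87 and 16.4 CPM in TNF and 2.24, 2.43, 3.40 and 4.16 CPM in NT. The 4 that were lower, named after their values were seen, were IL6R, TGFA, NOTCH1 and TNFRSF1B. TNF itself was too low to test, with 2, 8, 24 and 4 counts in the TNF group and 0, 0, 0 and 1 counts in NT.

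Of 14 matrix substrates of ADAMTS proteases, 11 were tested, with 3 higher and 1 lower (14.5% and 9.9% of all genes were). ACAN, which encodes aggrecan, had 76.0, 100.1, 77.3 and 158 CPM in TNF and 36.8, 42.5, 29.3 and 61.6 CPM in NT (log2 1.27, edgeR adjusted p = 0.00822). Its values in TNF replicate 4 and NT replicate 4 were the highest of their groups, as for ADAMTS6. THBS2, a thrombospondin, was higher (log2 1.59, edgeR adjusted p = 0.000379), and so was FBN1, the fibrillin 1 gene (log2 0.44, edgeR adjusted p = 0.00857). COL2A1 was lower (log2 -1.56, edgeR adjusted p = 0.0198), at 0.514 ± 0.324 CPM in TNF and 1.55 ± 0.416 CPM in NT. Under the replicate block VWF was lower as well (adjusted p = 0.00720). LRP1 and LRP1B, receptors that take up ADAMTS proteases, did not pass the test.

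**Figure D5:**
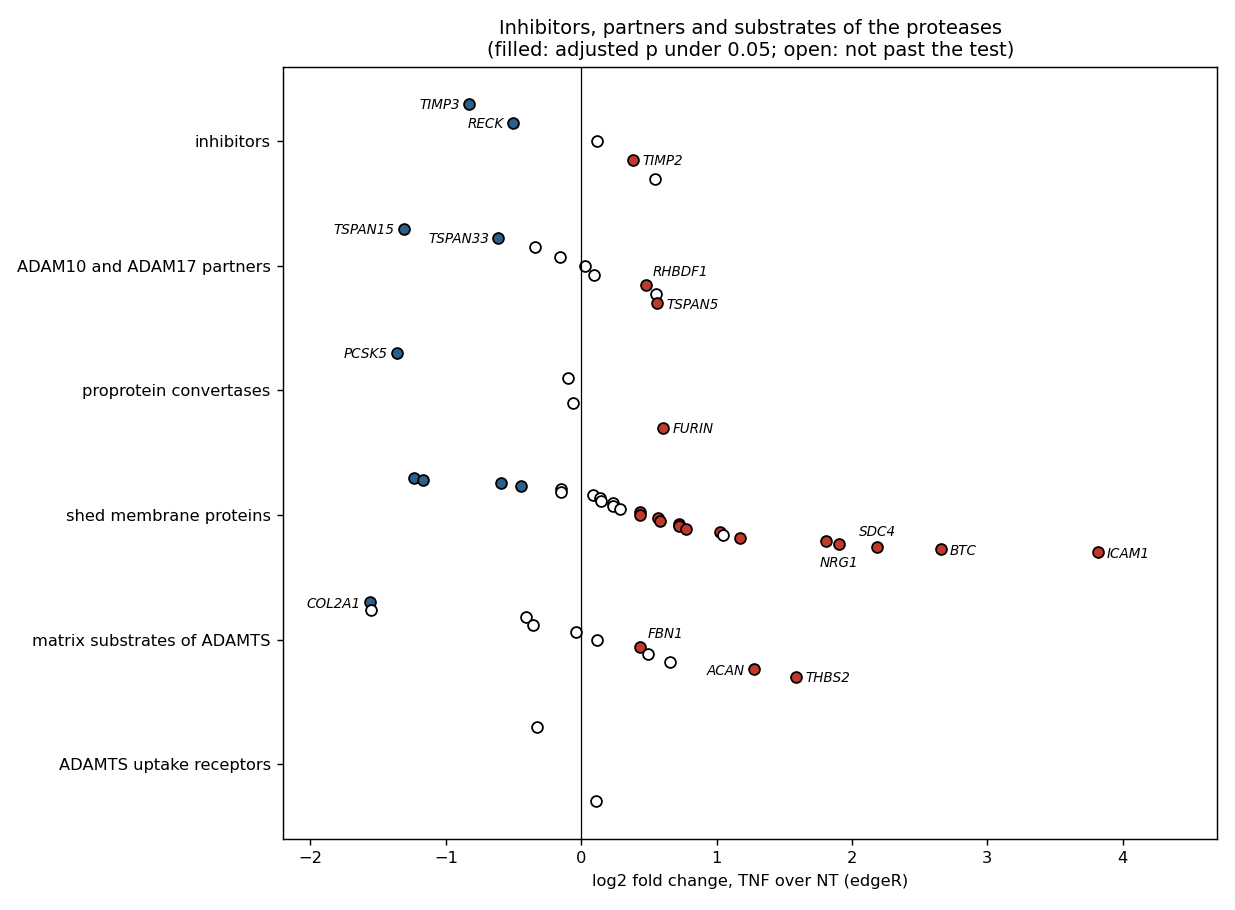
Log2 fold change of TNF over NT (horizontal axis, edgeR) for inhibitors, partners, convertases, shed proteins, matrix substrates and uptake receptors, 1 point per tested gene. Filled points passed an adjusted p of 0.05, and names are given for up to 4 of them per list. TIMP3 at -0.83 and TSPAN15 at -1.31 lie left of 0, and FURIN at 0.61 lies right of it.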

How the data were processed

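RNA of A375 cells, NT or treated with TNF, was sequenced in 8 stranded polyadenylated libraries, 4 per group. Per the labels and the study's methods, the authors aligned the reads to GRCh38 with Bowtie2 and estimated expected counts per gene with RSEM 1.2.25. For the Bowtie2 version and the use of strand in counting, the sources used here are silent. The deposited expected counts are not normalized, and the table of the whole series was used, with each column matched to a sample by its title. The single-sample records of all 4 NT samples hold the counts of another NT replicate, and those of 0 TNF samples do, which bears on the pairs of libraries and on no group.

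Counts were rounded, filtered (minimum count 10, minimum total 15, by group, leaving 16186 of 60710 genes) and scaled by TMM. The robust quasi-likelihood test of edgeR 4.0.16 in R 4.3.3 had treatment as its single term, and p-values were adjusted by Benjamini-Hochberg across the tested genes, with a call at an adjusted p under 0.05. Library totals ran from 30989787 to 44373296. The standard error of a log2 fold change was taken as its size over the root of F. A prior count of 2 entered log2 CPM. No 2 libraries of a group agreed within sampling noise (chi-square per degree of freedom at least 12.2), so each counted as 1 replicate. The titles give each TNF library the date of 1 NT library, and the deviations of such pairs from the means of their groups correlated across the 16186 genes (0.35, 0.17, 0.24 and 0.46 in experiments 1 to 4). The libraries were paired by these dates, and 1 alternative had the dates as a replicate block. The pairs that the single-sample records would give were not compared with them. The other alternatives were DESeq2 1.42.0, limma 3.58.1 (voom), factors by RLE or the upper quartile, library totals alone, no filter on low counts, a minimum of 10 counts per library, each library left out, experiment 4 left out, the 3 libraries with more ribosomal RNA left out, an adjusted p under 0.01 and a log2 fold change above 1 in size.

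Members, gene lists, alternatives and the rule for naming genes were chosen with earlier results of these data known. Every member past the threshold was named with its value in each library, other tested members by group means or by library, and in each list up to 4 members past the threshold with the largest change. Exon overlaps, coding sequences and transcript lengths come from GENCODE release 44, a release other than the one in the paper's methods, and 46 of 46 members were found in it.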

Additional observations from a re-analysis of the deposited data

Results flagged for a closer look

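A library was called apart when its gap to the nearest library of its group, divided by the group's range in log2 CPM, was above Dixon's 95% critical value. Of 54 groups looked at (27 tested genes in 2 groups), 4 held such a library, where chance at 1 in 20 gives about 2.7. ADAM19 had a log2 CPM of 6.54 in TNF replicate 4, below the other TNF libraries at 7.13 to 7.14. ADAMTS4 had 2.27 in TNF replicate 4, below the other TNF libraries at 3.31 to 3.46. ADAMTSL1 had 1.66 in TNF replicate 1, where the other TNF libraries had 1.83 to 1.85. ADAMTS9 had 2.51 in NT replicate 2, where the other NT libraries had 2.34 to 2.37, although its difference between TNF and NT was larger than this gap. TNF replicate 4 is also among the libraries with more ribosomal, 7SK and 7SL RNA and belongs to the experiment that stood apart. The part of either in these values was not tested.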

How the results depend on the processing

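With the replicate block, 10 members were higher and 8 lower, against 6 and 5 without it. With a log2 fold change above 1 in size, 4 were higher and 3 lower (909 and 387 of 16186 over all genes). Leaving out each library in turn gave 5 to 8 higher and 5 to 6 lower, where 1880 to 2521 and 1110 to 1896 of 16307 to 16574 genes were called over the whole table. Over 27 genes and the 18 alternatives that refitted the test (all but the 2 other thresholds), 481 pairs of a gene and an alternative could be tested. Of these, 451 gave the same call, 11 lost it, 19 gained one and 0 reversed. All 11 losses were of ADAMTS7 (adjusted p up to 0.141), and 10 of the 11 called genes kept their call in all of these that tested them, although ADAM8 was not tested with at least 10 counts in every library. The 19 gains came from 8 genes, of which ADAMTSL4 gained a call in 7 alternatives. Scaling by library totals moved the median log2 fold change of all genes to -0.09, the largest shift. The filter left out 11 members with few counts, of which ADAMTS8 alone passed with no filter (adjusted p = 0.00959), and for the other 10 a difference was not detectable at this depth.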

Other observations

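Among the endothelial markers, PECAM1, an endothelial adhesion gene, had 2.30 ± 0.560 CPM in TNF and 0.312 ± 0.114 CPM in NT (log2 2.84, edgeR adjusted p = 6.9e-05). VWF had 0.226 ± 0.151 CPM in TNF and 0.681 ± 0.318 CPM in NT (log2 -1.55, edgeR adjusted p = 0.0514, and 0.00720 with the replicate block). CDH5, the cadherin of endothelium, was too low to test, at 0.113 ± 0.0669 CPM in TNF and 0.166 ± 0.0362 CPM in NT (SD, n = 4 each). Among keratin genes, KRT5 had 1.61 ± 0.444 CPM in TNF and 0.192 ± 0.0733 CPM in NT (log2 3.02, edgeR adjusted p = 9.67e-05), and KRT14, its usual partner, had 8.39 ± 1.30 CPM in TNF and 18.3 ± 2.98 CPM in NT (log2 -1.12, edgeR adjusted p = 0.000257). KRT10 did not pass, at 48.7 ± 2.71 CPM in TNF and 44.9 ± 4.90 CPM in NT (SD, n = 4 each).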
